A study of Mus musculus with 8 samples.

Results

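Calcium cycling genes of brown fat were followed across 8 RNA sequencing libraries of brown adipose tissue. The set holds 10 listed genes: the calcium pumps Atp2a1, Atp2a2 and Atp2a3, the small pump regulators Sln and Pln, and the release channels Ryr1, Ryr2, Itpr1, Itpr2 and Itpr3. All 10 were found among the 54385 genes of the deposited table. They were then separated by whether their level followed the skeletal muscle transcripts Acta1 (skeletal muscle actin) and Ckm (muscle creatine kinase).

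Atp2a pumps, also called SERCA, move calcium from the cytosol into the endoplasmic or sarcoplasmic reticulum at the cost of ATP. Ryanodine receptors (Ryr) and inositol trisphosphate receptors (Itpr) let it out again. When calcium leaks back or the pump is uncoupled, as by sarcolipin in muscle, ATP is spent as heat, and a cycle through Atp2a2 and ryanodine receptor 2 has been described as a source of heat in beige fat. Atp2a1 is the pump of fast skeletal muscle. Ryr1 is the release channel of skeletal muscle, a tissue that lies against the interscapular fat pad.

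The 4 libraries titled Adcy3 Ad-cKO (here cKO) came from mice with floxed Adcy3 alleles (Adcy3-FL/FL), the gene of a cyclic AMP-producing adenylyl cyclase, and with Adipoq-Cre, a recombinase under the adiponectin promoter that acts in adipocytes. The 4 WT libraries came from Adcy3-FL/FL mice titled as wild type. All mice were C57BL/6N, 20 weeks old and on chow. Cells other than adipocytes keep Adcy3 in the cKO, and whole tissue was extracted. Sample labels call the tissue interscapular and the design text inguinal. WT replicate 4 has a genotype entry that carries the Cre, against its title, so results are also given without it or with it moved.

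Each library held between 10713043 and 32437214 estimated counts. Adcy3 stood at 17.95 to 25.3 CPM (counts scaled to library size by TMM) in cKO libraries and 61.7 to 118 CPM in WT libraries, with 118 CPM in WT replicate 4. The Adcy3 level of WT replicate 4 thus lay within the range of the other WT libraries and above every cKO library. Summed over 8 brown adipocyte markers, levels were 9803 to 13630 CPM in cKO and 10963 to 12670 CPM in WT. The 14 fast muscle markers together held 0.00697% to 0.942% of counts. Heart markers were low, at 2.60 to 7.79 CPM in cKO and 2.21 to 6.95 CPM in WT for the sum of 7 genes, with Myl7 at 0 in all libraries but WT replicate 1 (0.031 CPM).

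Promoter windows in RefSeq (GRCm38.p6, 250 bases before to 50 after the start) were found for 7 of the 10 genes. Those of Atp2a1 (chr7:126463024-126463323, minus strand) and Ryr1 (chr7:29125102-29125401, minus strand) are shown because these genes moved together across libraries. Capitals mark CANNTG, the E-box bound by myogenic factors.
Atp2a1: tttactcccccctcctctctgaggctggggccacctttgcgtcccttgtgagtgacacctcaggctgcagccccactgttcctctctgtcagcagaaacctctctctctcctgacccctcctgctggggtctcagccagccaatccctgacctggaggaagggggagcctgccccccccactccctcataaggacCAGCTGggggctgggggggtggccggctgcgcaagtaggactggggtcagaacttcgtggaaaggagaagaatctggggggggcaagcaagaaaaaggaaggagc
Ryr1: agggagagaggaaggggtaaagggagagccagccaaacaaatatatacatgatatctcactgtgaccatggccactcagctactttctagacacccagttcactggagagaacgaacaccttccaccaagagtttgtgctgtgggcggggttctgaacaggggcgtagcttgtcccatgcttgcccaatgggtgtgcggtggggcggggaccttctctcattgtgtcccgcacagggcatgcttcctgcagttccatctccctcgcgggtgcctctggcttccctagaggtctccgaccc
The Atp2a1 window holds 1 CANNTG and the Ryr1 window 0, searched on both strands, and 72.3% of 32851 windows of this length hold at least 1. Neither window holds TATAAA, searched in the same way, which occurs in 13.6% of windows. Their GC content is 62.3% for Atp2a1 and 56.7% for Ryr1, against a median of 52.7% over all windows and a range of 36.0% (Pln) to 73.3% (Itpr2) over the 7.

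No pump, regulator or channel passed the test between cKO and WT. Of the 10 genes, 9 had enough counts to be tested (Sln did not), and edgeR called 0 of these 9 at an adjusted p of 0.05, where 0.0687% of all 14553 tested genes were called. At an unadjusted p under 0.05 the number was also 0, against 5.6% of all genes. The other tools, limma-voom and DESeq2, gave 0 by both criteria. The groups overlapped for each of the 9, while 3.5% of all genes showed no overlap. Log2 fold changes were positive for 5 and negative for 4, with a median of 0.10 against 0.0093 over all genes. In whole tissue, fewer cells of a type and less RNA per cell cannot be told apart.

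**Figure D1:**
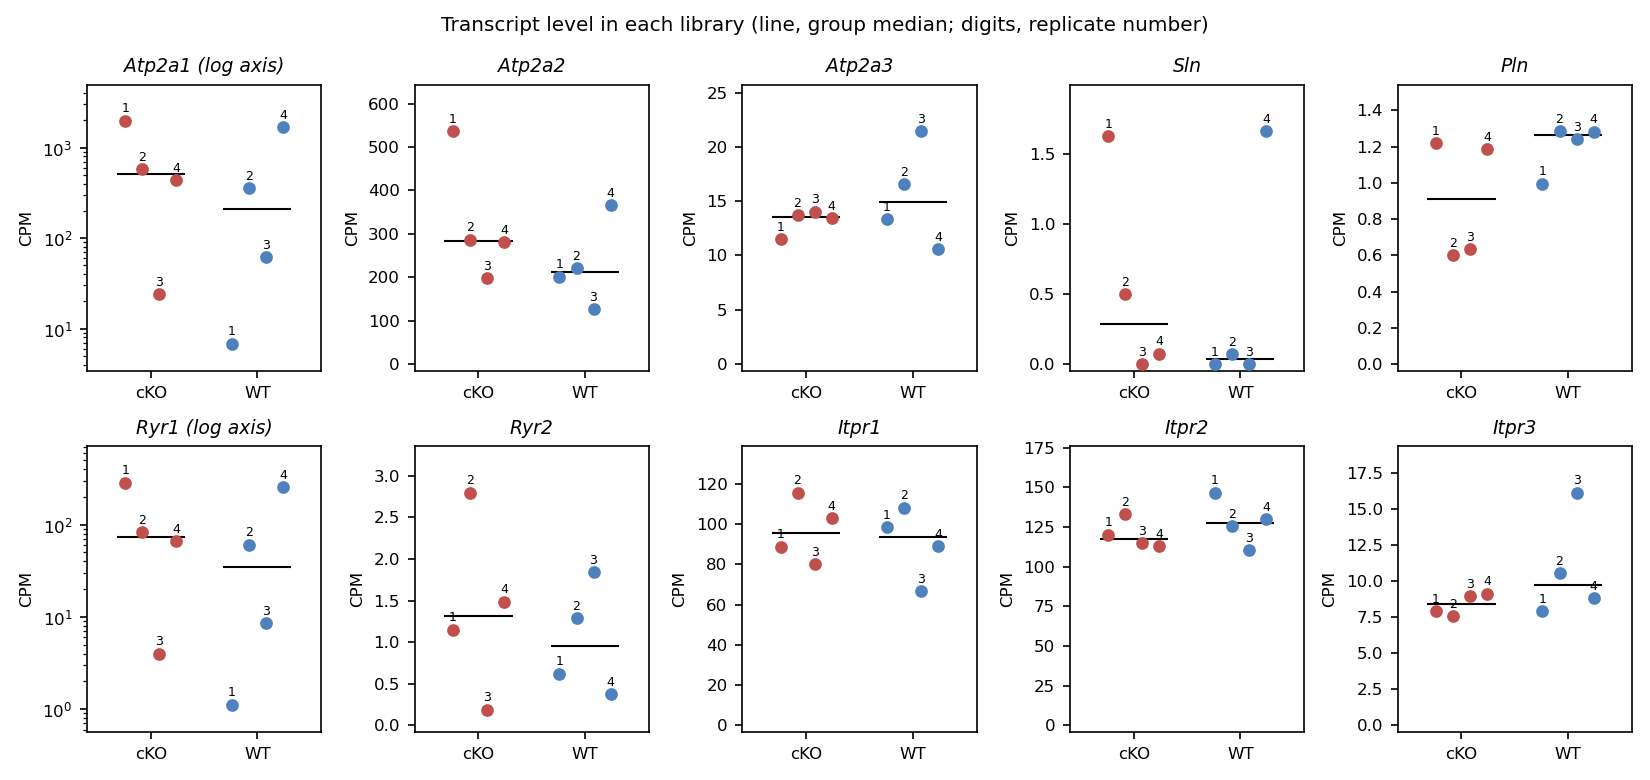
Level of each of the 10 genes in CPM, with cKO libraries left of WT libraries, 1 point per library and a line at the group median. Atp2a1 and Ryr1, on log axes, differ 293-fold and 254-fold between their highest and lowest library, and cKO and WT overlap for every gene.

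Atp2a1, the fast muscle pump (GRCm38 chromosome 7, 126445858 to 126463108, minus strand), varied more than any other pump or channel with counts in every library. It stood at 1993, 580, 23.9 and 435 CPM in cKO replicates 1 to 4 and at 6.81, 357, 61.7 and 1683 CPM in WT replicates 1 to 4. Both groups hold very high and very low libraries, and the highest value was 293 times the lowest. The fold change was 0.52 on the log2 scale, cKO over WT, with a 95% interval of -3.71 to 4.76 (edgeR adjusted p = 0.983).

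Ryr1, the skeletal muscle release channel (chromosome 7, 29003344 to 29125179, minus strand), showed the same order of libraries. Its levels were 285, 83.0, 4.00 and 65.7 CPM in cKO and 1.12, 60.5, 8.54 and 257 CPM in WT. As for Atp2a1, cKO replicate 1 and WT replicate 4 were highest, and WT replicate 1 and cKO replicate 3 lowest. Its log2 fold change was 0.43 (95% interval -3.70 to 4.55, edgeR adjusted p = 0.984).

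These fold changes rested on single libraries and differed between tools. With all 8 libraries, limma-voom gave log2 fold changes of 1.37 for Atp2a1 and 1.69 for Ryr1 (limma-voom adjusted p = 0.896 and 0.880). The DESeq2 values were 0.53 and 0.43, close to those of edgeR. Without WT replicate 4 the log2 fold change was 2.43 for Atp2a1 (edgeR adjusted p = 0.825) and 2.26 for Ryr1 (edgeR adjusted p = 0.837). With that library moved to cKO by its genotype entry they were 2.74 and 2.60 (edgeR adjusted p = 0.759 and 0.766). Its Adcy3 level, at 118 CPM, was however that of a WT library. Without cKO replicate 1 both turned negative, at -0.60 and -0.67 (edgeR adjusted p = 0.968 and 0.965).

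The muscle score, the mean log2 CPM of Acta1 and Ckm, ordered the libraries in the same way. Acta1 stood at 2069, 464, 24.8 and 377 CPM in cKO and at 7.46, 327, 68.2 and 1385 CPM in WT. Ckm stood at 945, 258, 11.1 and 183 CPM in cKO and at 2.95, 176, 36.4 and 695 CPM in WT. The score averaged 7.75 ± 2.67 in cKO and 6.44 ± 3.29 in WT (SD, n = 4 each; two-sided exact permutation p = 0.543). With 4 libraries against 4, the smallest p this test can give is 0.0286.

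Atp2a1 and Ryr1 changed in proportion to the muscle score. The slope of each gene was fitted with group in the model, in log2 units of level per log2 unit of score, so that 1 means proportional. Atp2a1 had a slope of 1.03 (95% interval 0.97 to 1.09, edgeR adjusted p = 1.76e-10) and Ryr1 of 1.02 (0.94 to 1.09, edgeR adjusted p = 3.39e-10). Of all 14551 genes tested for a slope, 1.15% were called with a slope of at least 0.5, and 2 of the 9 genes here were, Atp2a1 and Ryr1. Negative slopes were called for 0 of the 9 and for 0.33% of all genes. The slopes were 1.01 to 1.04 and 0.99 to 1.04 with any 1 library left out. Without WT replicate 1 and cKO replicate 3, the libraries farthest from the median score, they were 1.06 and 1.07.

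**Figure D2:**
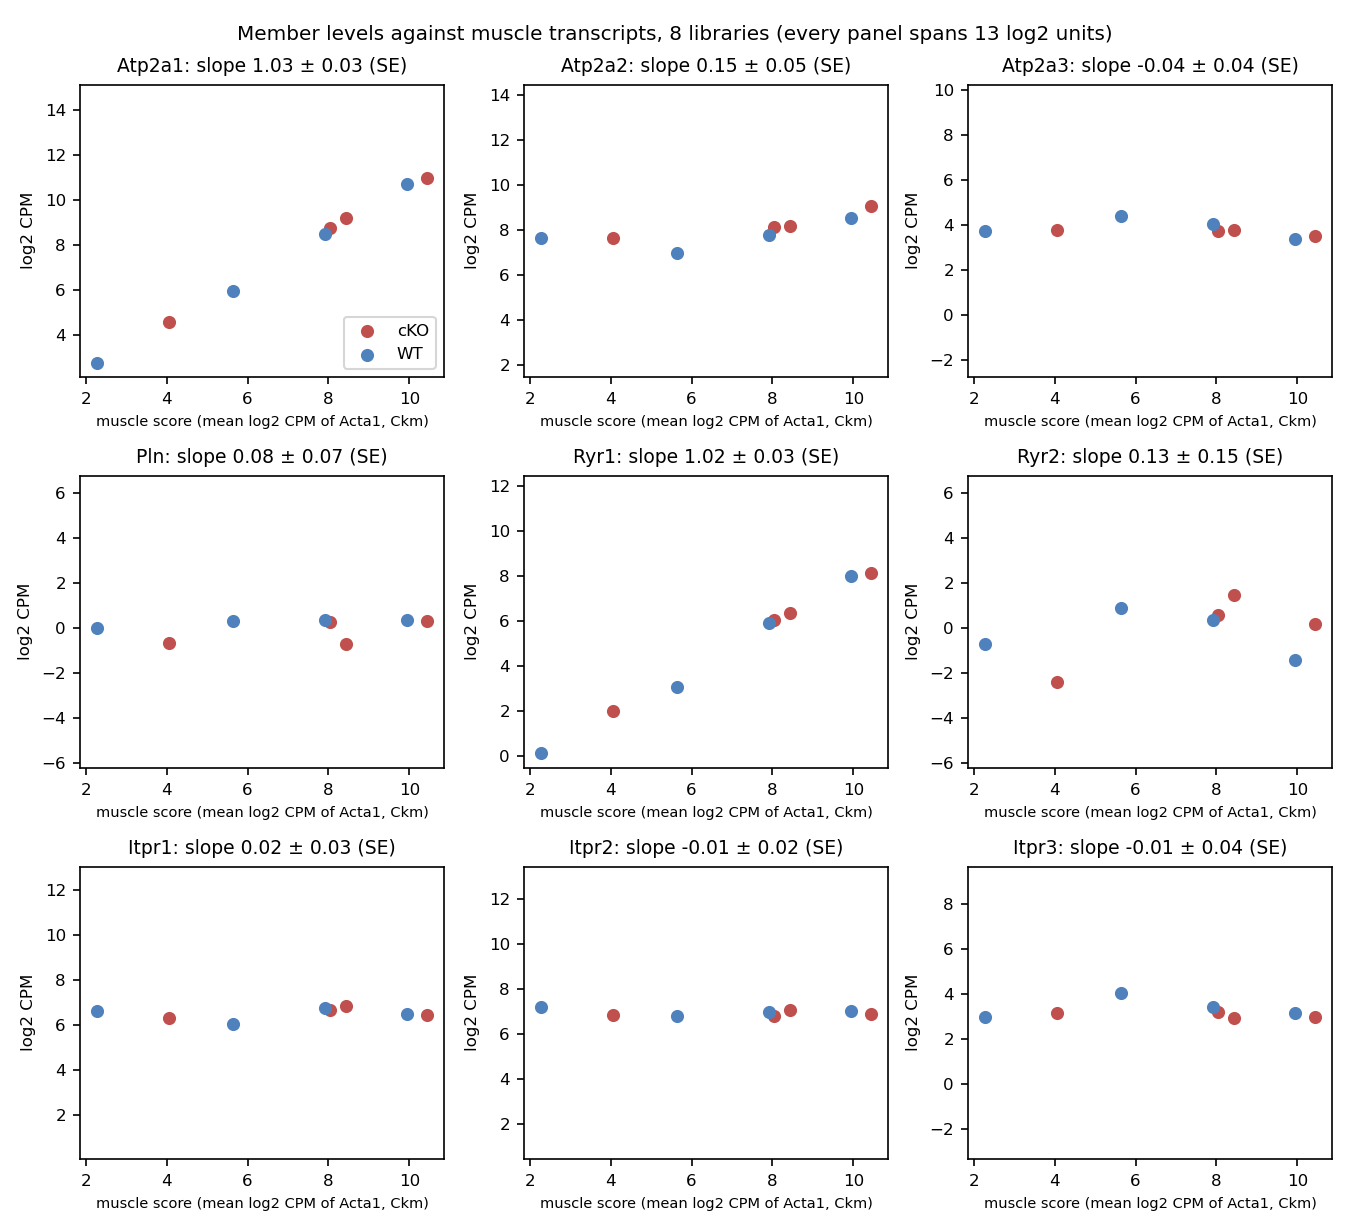
Log2 CPM of each of the 9 tested genes (vertical) against the muscle score (horizontal), 1 point per library, cKO in red and WT in blue, with every vertical axis of the same span. Atp2a1 and Ryr1 climb with slopes of 1.03 and 1.02, and the 3 Itpr genes stay flat at 0.02, -0.01 and -0.01.

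Ratios within a library were nearly constant for the muscle pair. Atp2a1 CPM per Acta1 CPM was 0.963, 1.25, 0.962 and 1.15 in cKO and 0.912, 1.09, 0.904 and 1.22 in WT. Per 100 CPM of Atp2a1, Ryr1 held 14.3, 14.3, 16.8 and 15.1 CPM in cKO and 16.4, 17.0, 13.8 and 15.3 CPM in WT. The 2 groups overlapped for both ratios. With the muscle score in the model, the log2 difference between cKO and WT was 0.05 for Atp2a1 (95% interval -0.22 to 0.31) and -0.0045 for Ryr1 (-0.37 to 0.36), with edgeR adjusted p = 0.970 and 0.998. In that model 0 of the 9 genes were called, against 0.0619% of all genes, and 0 of the 9 had an unadjusted p under 0.05, against 6.27% of all genes.

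The genes whose pattern was most like these were muscle genes. By the SD over the 8 libraries of the log2 ratio to Atp2a1, the 3 nearest of 13572 genes were Cacna1s at 0.11, the voltage sensor of the muscle calcium channel, Ryr1 at 0.14 and the fast myosin Myh4 at 0.15. Nearest to Ryr1 were Atp2a1 at 0.14, Myh4 at 0.20 and Acta1 at 0.20. Atp2a1 and Ryr1 themselves had SDs of 2.94 and 2.86 in log2 CPM. Of the 31-base sequences of Atp2a1, 20.3% are shared with other genes, mainly Rabep2 on the opposite strand, which held 9.46 to 25.6 CPM over the 8 libraries.

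Atp2a2, the pump of slow and heart muscle and, as its long isoform, of most other cells, was abundant in every library. The gene lies on chromosome 5, 122453513 to 122502225, minus strand. It stood at 537, 286, 197 and 280 CPM in cKO and at 201.4, 221, 126 and 366 CPM in WT. The libraries highest in muscle transcripts, cKO replicate 1 and WT replicate 4, were again highest, but the highest was 4.25 times the lowest where Atp2a1 had 293 times. Averages were 325 ± 147 CPM in cKO and 229 ± 100 CPM in WT (SD, n = 4 each), with overlap, a log2 fold change of 0.51 and a 95% interval of -0.46 to 1.48 (edgeR adjusted p = 0.903). The log2 fold change was 0.16 without cKO replicate 1, 0.31 without WT replicate 3, 0.84 without WT replicate 4 and 0.87 with WT replicate 4 moved to cKO (edgeR adjusted p = 0.690 to 0.999). The muscle and the general isoform share a single row of the table.

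Its slope on the muscle score was 0.15 (95% interval 0.04 to 0.26), which did not pass over all genes (edgeR adjusted p = 0.271), so Atp2a2 was not grouped with the muscle transcripts. Whether the slope passed depended on the libraries: without WT replicate 1 the slope was 0.25 (edgeR adjusted p = 0.00238), and without WT replicate 1 and cKO replicate 3 it was 0.37 (edgeR adjusted p = 0.000186). Both slopes stayed under the 0.5 set for the muscle group. In the 3 libraries with the least Atp2a1, cKO replicate 3, WT replicate 1 and WT replicate 3, Atp2a2 still held 197, 201.4 and 126 CPM. With the muscle score in the model its log2 difference was 0.28 (95% interval -0.35 to 0.90, edgeR adjusted p = 0.893).

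A straight line of Atp2a2 on Atp2a1, chosen after the values were seen, met the axis at 178 CPM of Atp2a2 where Atp2a1 is 0. That value was 171 to 194 CPM with any 1 library left out, and the line gained 15.5 CPM of Atp2a2 per 100 CPM of Atp2a1. Distances from the line were 50.9, 18.8, 16.1 and 35.6 CPM in cKO and 22.7, -11.6, -60.9 and -71.5 CPM in WT. These distances sum to 0 by construction, and the groups overlapped at WT replicate 1 (two-sided permutation p = 0.0857). With the line refitted without WT replicate 4, they were -2.99 to 27.1 CPM in cKO and -58.5 to 26.7 CPM in WT (permutation p = 0.286). With that library moved to cKO, they were -71.5 to 50.9 CPM in cKO and -60.9 to 22.7 CPM in WT (permutation p = 0.464). Distances from a line fitted to the same libraries are not independent, so these permutation p-values are only approximate.

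Atp2a3, the pump of blood, endothelial and some epithelial cells, was low. It stood at 11.5, 13.7, 14.03 and 13.4 CPM in cKO and at 13.3, 16.6, 21.5 and 10.6 CPM in WT, within a range of 2.03 times and with overlap. The log2 fold change was -0.24 (95% interval -0.66 to 0.18, edgeR adjusted p = 0.901) and -0.034 without WT replicate 3. That library was also highest in the sum of 6 endothelial markers, at 767 CPM, against 474 to 581 CPM in cKO libraries and 499 to 542 CPM in the other WT libraries. The sum of 8 blood and immune markers was 33.5 CPM in that library. It was 19.9 to 38.6 CPM in cKO libraries and 19.6 to 33.0 CPM in the other WT libraries. The part of either cell type in the Atp2a3 values was not tested. The slope on the muscle score was -0.04 (95% interval -0.12 to 0.05, edgeR adjusted p = 0.834).

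Which pump led the family therefore differed between libraries of 1 group. Per kilobase of exons, Atp2a1 made up 86.4%, 77.1%, 16.3% and 72.0% of the 3 pumps in cKO and 5.21%, 72.2%, 41.7% and 88.6% in WT. Atp2a2 made up 13.3%, 21.7%, 77.3% and 26.6% in cKO and 88.1%, 25.6%, 48.8% and 11.03% in WT. Atp2a2 led in the 3 libraries lowest in muscle transcripts and Atp2a1 in the other 5. The Atp2a2 share averaged 34.7% ± 28.9 in cKO and 43.4% ± 33.6 in WT (SD, n = 4 each; two-sided exact permutation p = 0.686), and the difference changed sign without WT replicate 1.

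**Figure D3:**
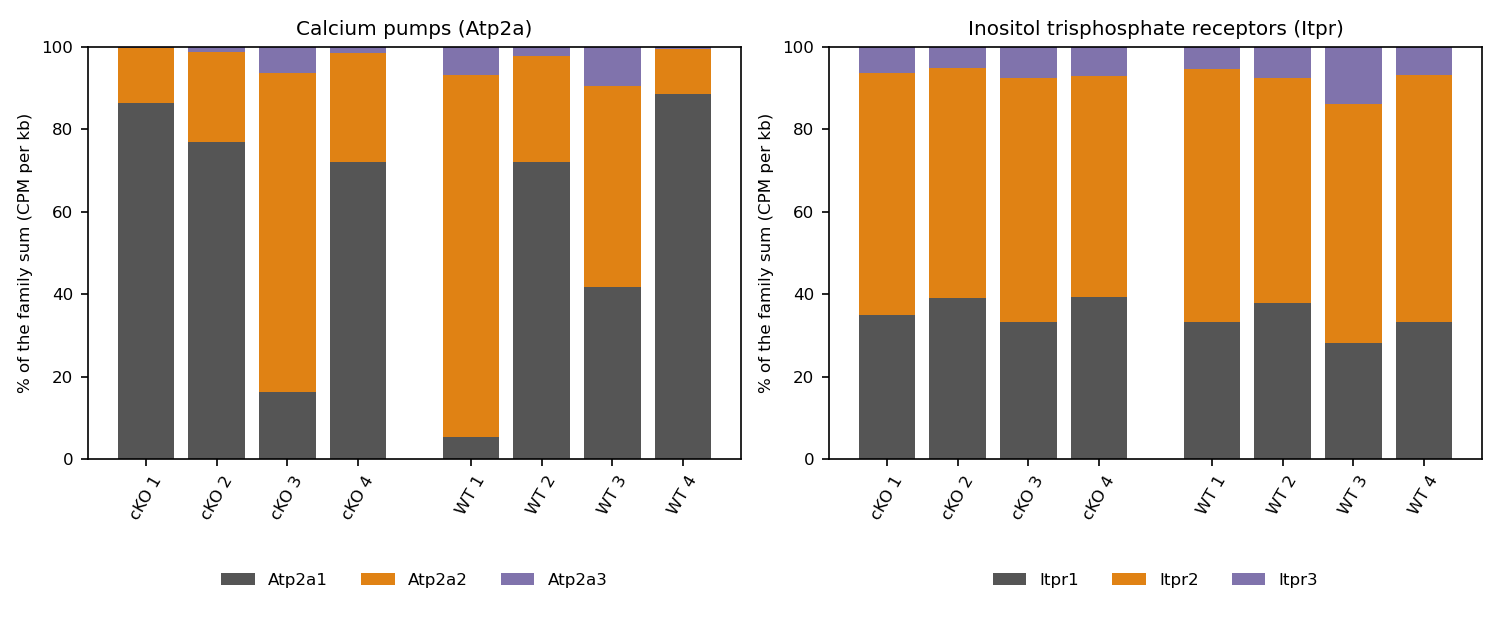
Share of each gene in the sum of its family, in % of CPM per kilobase of exons, as stacked bars per library, cKO left of WT, for the 3 pumps and the 3 inositol trisphosphate receptors. The Atp2a1 share runs from 5.21% to 88.6%, while the Itpr2 share stays between 53.5% and 61.4%.

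Sln, sarcolipin, which in muscle uncouples the pump from calcium transport, was almost absent. It had 24, 5, 0 and 1 counts in cKO and 0, 1, 0 and 22 counts in WT. Only cKO replicate 1 and WT replicate 4 passed 1 CPM, at 1.63 and 1.66 CPM. A count of 0 allows up to 0.190 CPM in cKO replicate 3 and, in WT replicates 1 and 3, up to 0.0933 and 0.149 CPM, counting error only. Those same libraries were highest in the slow muscle myosin Myh7, at 648 CPM in cKO replicate 1 and 327 CPM in WT replicate 4, against 5.90 to 73.0 CPM in the other cKO libraries and 2.24 to 10.7 CPM in the other WT libraries. Without a count filter, edgeR gave Sln a log2 fold change of 0.49 (95% interval -4.04 to 5.03, adjusted p = 0.967) and a slope on the muscle score of 1.41 (0.99 to 1.82, adjusted p = 4.91e-09). In that unfiltered fit, 1.54% of 35500 genes had a called positive slope. Its p-values were far smaller, with an edgeR adjusted p of 1.42e-255 for the Atp2a1 slope against 1.76e-10 with the filter. The value for Sln is thus not comparable with those of the filtered fit.

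Pln, phospholamban, which holds back Atp2a2 until protein kinase A phosphorylates it, was also near the limit of detection. It stood at 1.22, 0.599, 0.635 and 1.19 CPM in cKO and at 0.995, 1.29, 1.24 and 1.28 CPM in WT, from 50 counts in all of cKO and 92 in all of WT. The cKO libraries fell into a higher and a lower pair, and the higher pair overlapped the WT range. The log2 fold change was -0.38 (95% interval -1.17 to 0.41, edgeR adjusted p = 0.922) and the slope on the muscle score 0.08 (-0.07 to 0.23). Of its 31-base sequences, 59.6% are shared with other genes, most with Gm47644 on the opposite strand, itself at 0.0999 to 1.36 CPM, so the count of Pln is uncertain.

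Ryr2, the heart release channel, was low and scattered. It stood at 1.15, 2.80, 0.190 and 1.48 CPM in cKO and at 0.622, 1.29, 1.84 and 0.377 CPM in WT, from 68 and 80 counts in all. Its lowest and highest values both lay in cKO, and they were not those of the libraries lowest and highest in Ryr1. The log2 fold change was 0.40 (95% interval -1.08 to 1.88, edgeR adjusted p = 0.965) and the slope on the muscle score 0.13 (-0.21 to 0.47, edgeR adjusted p = 0.859). The 3 genes nearest to it in pattern, Hcn2, Gm15241 and P2rx1, had SDs of the log2 ratio of 0.59 each, against its own SD of 1.08 in log2 CPM.

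Inositol trisphosphate receptors are the release channels opened by phospholipase C signalling, and Itpr2 and Itpr1 had the narrowest ranges of the 10 genes. Itpr2 (chromosome 6, 146108299 to 146502223, minus strand) stood at 120, 133, 115 and 113 CPM in cKO and at 147, 126, 110 and 130 CPM in WT. Its highest value was 1.33 times its lowest, against 1.74 times for Itpr1 and 2.13 times for Itpr3. The log2 fold change was -0.09 (95% interval -0.34 to 0.15, edgeR adjusted p = 0.944).

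Itpr1, the second of these receptors by level, stood at 88.6, 116, 80.2 and 103 CPM in cKO and at 98.2, 108, 66.5 and 89.0 CPM in WT. The groups overlapped over most of their range, with a log2 fold change of 0.10 (95% interval -0.25 to 0.44, edgeR adjusted p = 0.965). Slopes on the muscle score were 0.02 (-0.05 to 0.08) for Itpr1 and -0.01 (-0.05 to 0.04) for Itpr2, while the score itself spanned 8.18 log2 units.

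Itpr3, the least abundant of the family, stood at 7.93, 7.59, 8.95 and 9.13 CPM in cKO and at 7.90, 10.6, 16.1 and 8.83 CPM in WT. WT replicate 3 stood above all other libraries, as for Atp2a3 and the endothelial markers, and their part in it was not tested. The log2 fold change was -0.37 (95% interval -0.83 to 0.09, edgeR adjusted p = 0.890) and -0.11 without that library. Per kilobase of exons, Itpr2 made up 56.8% ± 2.64 of the family in cKO and 58.5% ± 2.99 in WT (SD, n = 4 each; two-sided exact permutation p = 0.400), while Itpr1 made up 36.7% ± 3.01 in cKO and 33.1% ± 3.97 in WT (exact permutation p = 0.143). With the longest coding transcript as length, Itpr2 averaged 49.1% in cKO and 51.5% in WT, and Itpr1 46.4% and 42.6%.

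Set per kilobase of exons, most genes that did not follow muscle kept apart from their neighbours in level. Atp2a2, at 20.8 to 88.3 CPM per kilobase, stood above Itpr2 at 7.46 to 9.92, and Itpr2 above Itpr1 at 3.63 to 6.31, with no overlap between libraries. Itpr1 overlapped Atp2a3, at 2.00 to 4.06, and below these came Itpr3 at 0.841 to 1.79, Pln at 0.217 to 0.466 and Ryr2 at 0.00661 to 0.0971. Atp2a1 ran from 1.96 to 573 and Ryr1 from 0.0513 to 13.04 CPM per kilobase. Thus Ryr1 was the 8th of the 10 in WT replicate 1 and the 3rd in cKO replicate 1. The order of Itpr2 and Itpr1 depended on the length used. With the longest coding transcript as length, Itpr1 exceeded Itpr2 in cKO replicates 2 and 4 and in WT replicate 2. Its family shares in these were 48.9%, 49.4% and 47.8%, against 47.6%, 45.8% and 47.0% for Itpr2.

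**Figure D4:**
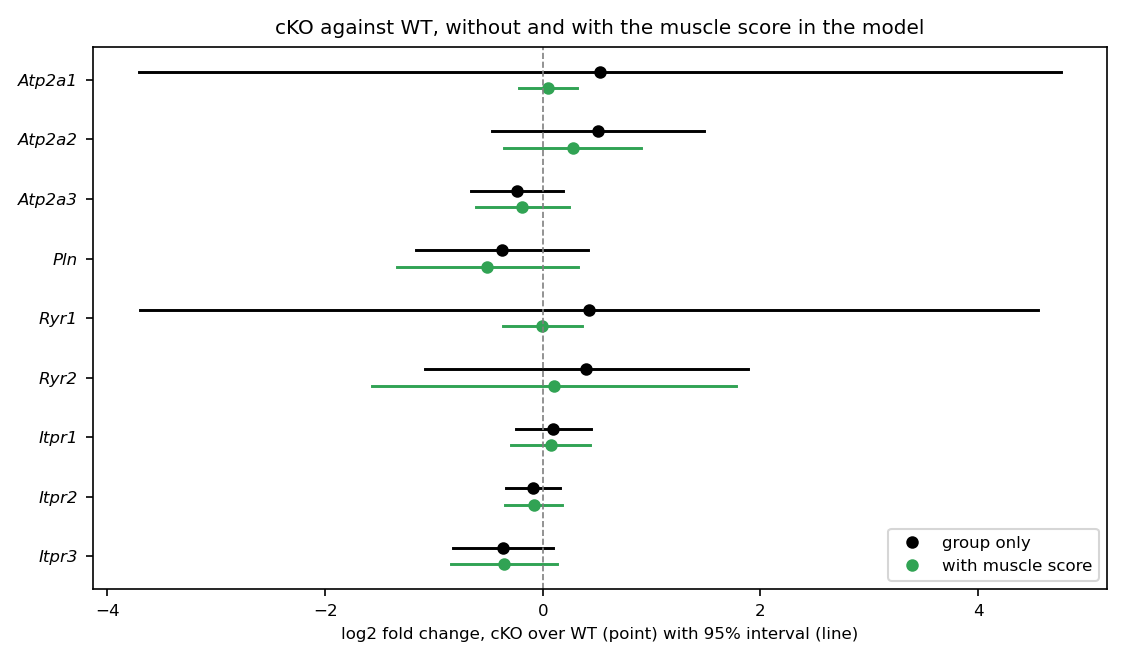
Log2 fold change, cKO over WT, of the 9 tested genes with its 95% interval, from the model with group alone (black) and with the muscle score added (green). With the score the interval of Atp2a1 narrows to -0.22 to 0.31 and that of Ryr1 to -0.37 to 0.36, and all intervals include 0.

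Other calcium handling genes were described from a list of 52 in 6 roles, of which 43 had enough counts. By edgeR 0 were called higher and 0 lower in cKO, where 0.0481% and 0.0206% of all genes were, with 3 at an unadjusted p under 0.05, where 5.6% of all genes were. The numbers from limma-voom and DESeq2 were likewise 0 called and 3 unadjusted. Log2 fold changes were positive for 32 and negative for 11, with a median of 0.11 against 0.0093 over all genes. All 12 luminal and junction genes were among the positive ones, with a median of 0.63. Of these 12, 8 had a called slope on the muscle score, 6 of them of at least 0.5. The score averaged 7.75 in cKO and 6.44 in WT. The log2 fold changes of the 8 ran from 0.41 (Jph2) to 0.73 (Jsrp1). With the score in the model they ran from -0.30 (Jph2) to 0.13 (Srl), negative for Casq1, Jph2 and Jsrp1. Those of Casq2, Calr, Asph and Fkbp1a, without a called slope, stayed positive, at 0.04 to 0.32. The signs were not tested as a set. The 3 genes at an unadjusted p under 0.05 were Smdt1, Plcg1 and Plcg2, Smdt1 and Plcg2 being named after their values were seen. Smdt1 is an essential subunit of the mitochondrial calcium uniporter, and Plcg1 and Plcg2 are phospholipases that make inositol trisphosphate. Smdt1 averaged 64.2 ± 5.04 CPM in cKO and 80.4 ± 12.4 CPM in WT, without overlap, as for 3.5% of all genes (SD, n = 4 each, edgeR adjusted p = 0.882). Plcg1 averaged 68.6 ± 3.10 CPM in cKO and 82.4 ± 4.998 CPM in WT, also without overlap (edgeR adjusted p = 0.882). Plcg2 averaged 0.875 ± 0.147 CPM in cKO and 1.54 ± 0.605 CPM in WT, with overlap (edgeR adjusted p = 0.884).

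By the slope on the muscle score, 10 of the 43 were called, all positive, where 2.01% of all genes were. Of these 10, 8 were among the 12 tested luminal buffers and junction proteins, a role that joins calcium buffers of the store with proteins at its contact with the surface membrane. Cacna1s had a slope of 1.11, and, named after their values were seen, the Ryr1 partners Jsrp1 and Trdn had 1.05 and 1.00, and Casq1, the calcium buffer of the fast muscle store, 0.92. Hrc, another calcium-binding protein of the store, had 0.95. Srl, sarcalumenin, had the lowest called slope of the role at 0.35 (edgeR adjusted p = 0.0162). Hrc and Srl were likewise named after their values were seen. The slopes of the junctophilins, which hold the 2 membranes together, were 0.67 for Jph2 and 0.495 for Jph1, also named after their values were seen. Calr and Fkbp1a, the most abundant of that role, had slopes of -0.06 and -0.02 that were not called. Calr, a calcium buffer of the endoplasmic reticulum in most cells, stood at 198 ± 29.2 CPM in cKO and 180 ± 24.3 CPM in WT (SD, n = 4 each).

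Outside that role, Slc8a3, a sodium calcium exchanger, and Plcd4, a phospholipase C, had called slopes of 0.65 and 0.31 and were named after their values were seen. No gene of store-operated entry (6 tested) or mitochondrial uptake and release (10 tested) was called. Stim1, the calcium sensor that opens store-operated entry, stood at 126 ± 12.2 CPM in cKO and 118 ± 18.6 CPM in WT. Its inhibitor Saraf stood at 95.7 ± 7.90 CPM in cKO and 98.1 ± 3.03 CPM in WT. Among the other pumps, Atp2c1 of the Golgi had 39.4 ± 6.45 CPM in cKO and 33.4 ± 5.18 CPM in WT, and Atp2b1 of the plasma membrane 31.5 ± 2.51 CPM in cKO and 29.8 ± 2.49 CPM in WT. Vdac1, a channel of the outer mitochondrial membrane, had 331 ± 50.0 CPM in cKO and 296 ± 42.1 CPM in WT. Letm1, of the inner membrane, had 297 ± 47.3 CPM in cKO and 280 ± 45.3 CPM in WT (SD, n = 4 each). Plcb4, a phospholipase C, had 57.6 ± 1.90 CPM in cKO and 56.7 ± 2.32 CPM in WT. S100a1, a calcium-binding regulator of pump and channel, had 149 ± 34.6 CPM in cKO and 142 ± 15.01 CPM in WT.

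**Figure D5:**
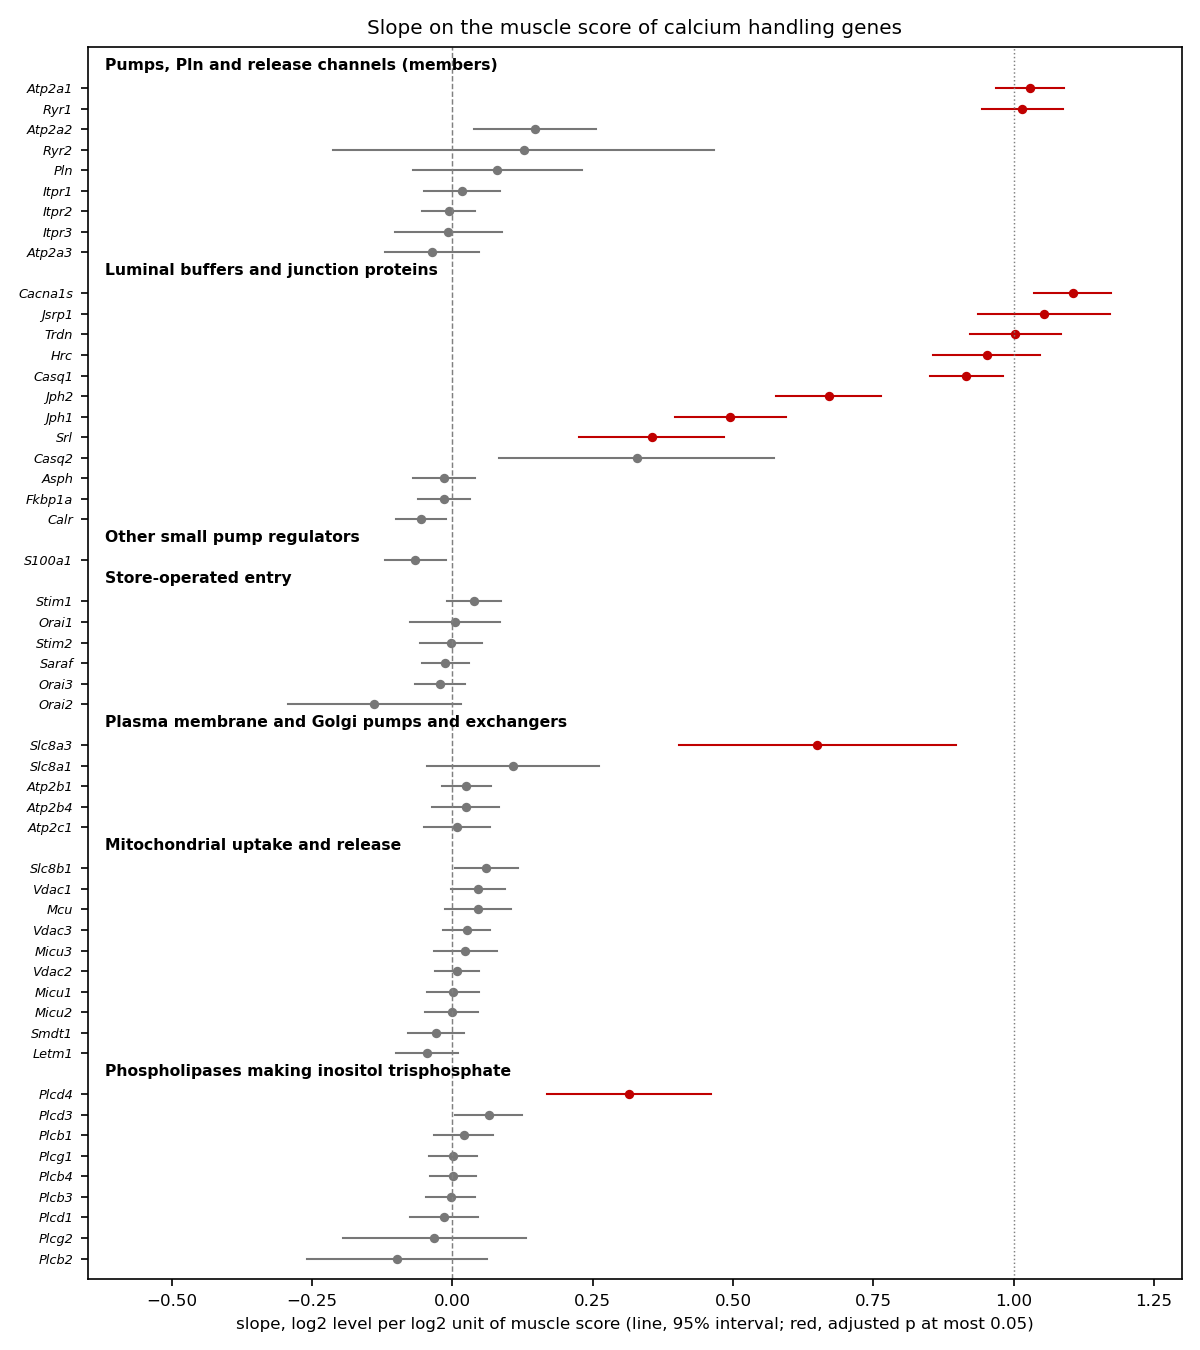
Slope on the muscle score, in log2 units of level per log2 unit of score, with its 95% interval, for the 9 tested pumps, Pln and release channels and the 43 other calcium handling genes by role, red where the edgeR adjusted p is at most 0.05. Atp2a1, Ryr1, Cacna1s, Jsrp1, Trdn and Casq1 sit near 1, between 0.92 and 1.11, while genes of store-operated entry and the mitochondria sit near 0.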

How the data were processed

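The authors deposited 1 table of estimated counts per Ensembl gene, with no scaling and a column for each library. StringTie, Salmon and edgeR are named, without versions or settings, per the submitters' processing notes, with genome build GRCm38. Not given in the sources used here are the annotation release, strand setting and filters. Columns were matched to samples by the library identifier in the labels, and groups taken from the titles. The labels do not say that libraries came from separate animals, so the p-values reflect variation among these libraries, and that variation may be technical. No pair of libraries agreed within sampling noise (chi-square per degree of freedom at least 14.5).

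Symbols came from GENCODE M21 (GRCm38), which named 54131 identifiers (99.5%). Estimated counts were rounded. Genes were filtered with filterByExpr, scaled by TMM and tested in edgeR 4.0.16 (R 4.3.3) by the quasi-likelihood test with robust fitting, with Benjamini-Hochberg adjustment over all genes tested and a threshold of 0.05. CPM carries no prior count, and the muscle score uses log2 CPM with a prior count of 2. The slope test leaves out Acta1 and Ckm, and a gene was put with the muscle transcripts at a slope of at least 0.5 and an adjusted p of at most 0.05. Levels per kilobase use merged exons. The share of 31-base sequences found in transcripts of other genes was counted on both strands with Python 3.11.15. Floors are 3 counts per library. Alternatives were other scalings, DESeq2 1.42.0, limma-voom (limma 3.58.1), other filters, a replicate block, libraries left out or moved, another score, and other lengths.

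The genes and lists were chosen with earlier results of these data known. Besides the 10 genes, Adcy3, Acta1 and Ckm, the text names called genes of each role or otherwise its 2 most abundant. It also names the 3 genes nearest in pattern to each tested gene with an SD over 1 in log2 CPM. Other genes of the roles were named after their values were seen.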

Additional observations from a re-analysis of the deposited data

Results flagged for a closer look

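Over 42 groups of 4 libraries, 3 held a library far from the other 3 of its group, and chance gives about 1 in 20. Sln stood at 1.66 CPM in WT replicate 4, while the other WT libraries held 0 to 0.0714 CPM. Pln stood at 0.995 CPM (32 counts) in WT replicate 1 and at 1.24 to 1.29 CPM (17 to 25 counts) in the other WT libraries. With so few counts that gap cannot be told apart from counting error. Adcy3 stood at 61.7 CPM in WT replicate 3, against 112 to 118 CPM in the other WT libraries.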

How the results depend on the processing

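Under all 18 alternatives to the comparison of cKO with WT, 0 of the tested genes of the set and 0 of the other calcium handling genes were called. Adcy3 itself was not called with WT replicate 4 moved to cKO (edgeR adjusted p = 0.747) or with a replicate block (edgeR adjusted p = 0.225). A count of 0 under those settings therefore cannot tell whether a difference exists. The called slopes of Atp2a1 (0.99 to 1.13) and Ryr1 (0.97 to 1.11) held under all 14 alternatives. With any 1 library left out, log2 fold changes ran from -0.60 to 2.43 for Atp2a1, -0.67 to 2.26 for Ryr1, 0.16 to 0.84 for Atp2a2, -0.14 to 0.86 for Ryr2 and -0.022 to 0.20 for Itpr1. Slopes then ran from -0.098 to 0.0071 for Atp2a3, -0.065 to 0.31 for Ryr2, -0.0077 to 0.060 for Itpr1, -0.018 to 0.028 for Itpr2 and -0.086 to 0.022 for Itpr3. The muscle score difference ran from -0.083 to 2.53, and share differences, in percentage points, from -4.55 to 26.5 for Atp2a1, -22.8 to 6.26 for Atp2a2 and -2.82 to 0.0076 for Itpr3. Ryr2 had a log2 fold change of -0.069 with WT replicate 4 moved, and Ryr1 of -0.0045 with the muscle score. Without the 2 libraries farthest from the median score the slopes of Ryr2 and Itpr2 were -0.43 and 0.041. Without a filter 4 genes had called slopes, Sln and Atp2a2 (0.15, edgeR adjusted p = 0.0011) joining, in a fit that called positive slopes for 548 of 35500 genes against 293 of 14551 and 93 genes against 10 between groups, and with Atp2a1 left out of the sum, chosen after seeing the data, the Atp2a2 share differed by 3.54 points. The cause of these shifts was not tested.

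Replicate numbers are shared between groups, and deviations of same-numbered libraries correlated at -0.46, 0.035, 0.41 and 0.0016. Differently numbered libraries ran from -0.57 (cKO replicate 3 with WT replicate 4) to 0.47 (cKO replicate 1 with WT replicate 4). The latter are the libraries highest in muscle transcripts. Because muscle content also enters these correlations, they cannot show whether the numbers pair the libraries. With a replicate block the slopes of Itpr1 and Itpr3 were -0.038 and 0.043. In that fit 0 genes of the set were called between groups, and Adcy3 was not called either (edgeR adjusted p = 0.225). Sln, Pln and Ryr2 have too few counts for small differences to be detectable.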

Other observations

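Myl1, a light chain listed among the fast muscle markers, spanned less than the myosin Myh4. Myl1 stood at 353.8 CPM in cKO replicate 1, the library highest in muscle transcripts, and at 32.4 CPM in WT replicate 1, the lowest. Myh4 stood at 2714 CPM in cKO replicate 1 and at 9.92 CPM in WT replicate 1. Des, listed with smooth muscle, ordered the libraries as Atp2a1 did, with 310 CPM in cKO replicate 1 and 35.8 CPM in WT replicate 1. Cep85l, which overlaps Pln on the opposite strand, held 37.5, 26.8, 19.3 and 27.4 CPM in cKO and 20.2, 22.4, 18.4 and 38.0 CPM in WT, highest in the 2 libraries highest in muscle transcripts.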
